A study of Mus musculus with 18 samples.

Results

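Osteoblasts, the cells that build bone, and the stromal cells of the marrow from which they arise are told apart from blood cells by a small set of genes. Here 10 of these genes were followed in cultures of bone marrow-derived macrophages. The members were the rows of the deposited table whose gene symbol was Runx2, Sp7, Alpl, Bglap, Ibsp, Spp1, Postn, Dcn, Lum or Lepr. Each symbol matched 1 row, giving 10 of the 34745 genes of the table, and 9 of the 10 had enough counts to be tested among 14241 genes.

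The cells came from the marrow of Zmat1 knockout mice and of wild-type littermates on a C57BL/6 background, and the donors of such cultures were 4 to 8 weeks old. The study describes the knockout as one of the whole animal and not of a single cell type. Marrow cells were grown with M-CSF, the growth factor that turns them into macrophages, and were collected before RANKL (day 0) or after 1 or 3 days of RANKL, the ligand that drives macrophages to become osteoclasts. This gave 6 groups of 3 libraries: WT and KO on day 0 (M-CSF without RANKL), day 1 and day 3. The labels name macrophages as the cell type and give no step that removes other adherent marrow cells, and nothing in them ties a library to a single mouse, so p-values measure the spread between these libraries.

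A few facts on the libraries bear on the values that follow. The libraries held 13789775 to 17559958 counts each. Zmat1 itself had 49 to 99 counts in the libraries labelled KO and 32 to 91 in those labelled WT, so the ranges overlapped. Averaged over days, KO minus WT was 0.42 on the log2 scale (SE 0.23, adjusted p = 0.354, quasi-likelihood test of edgeR). Its counts were thus not lower in KO, and the groups are therefore called labelled WT and labelled KO. The study itself checked genotypes by PCR of tail DNA and Zmat1 mRNA in macrophages by qPCR. Which part of the gene was deleted is not given in the sources used here, so total counts may not read the deletion. A pair of libraries labelled WT on day 1 both carry the number 1 and are told apart by a single or double hyphen in their titles. A double hyphen is in the titles of 5 libraries (WT day 0 replicate 1, 1 of the WT day 1 replicates 1, KO day 0 replicate 2, and KO day 1 replicates 1 and 2) and of no day 3 library. WT day 0 replicate 3 stood apart from its group in most members.

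As background, osteoblasts form in steps. Stromal progenitors of the marrow carry the leptin receptor. RUNX2 and then Osterix, the product of Sp7, commit them to the lineage, tissue-nonspecific alkaline phosphatase (Alpl) and bone sialoprotein (Ibsp) accompany the start of mineralization, and osteocalcin (Bglap) marks the mature cell. Periostin (Postn), decorin (Dcn) and lumican (Lum) are matrix proteins of osteoblast precursors, periosteum and fibroblasts. Osteopontin (Spp1) is a phosphoprotein of bone matrix that osteoclasts and macrophages make as well.

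The upstream sequences of 3 members are shown because they frame the range of the set: Spp1 had the highest level, Bglap was almost undetected and Ibsp had the highest fitted fold change after RANKL in the libraries labelled KO. They were taken from RefSeq on GRCm38.p6 and end at the base before the RefSeq start, or for Ibsp at the base before the gene as the deposited table places it. Capitals mark ACCACA, a core recognised by RUNX factors, searched on both strands (TGTGGT on the other).
Spp1, chr5:104434861-104435110, plus strand: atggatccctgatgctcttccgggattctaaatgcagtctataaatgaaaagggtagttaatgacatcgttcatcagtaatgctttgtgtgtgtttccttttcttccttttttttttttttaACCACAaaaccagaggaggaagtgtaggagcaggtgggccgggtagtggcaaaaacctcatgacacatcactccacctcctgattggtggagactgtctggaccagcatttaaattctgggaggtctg
Bglap, chr3:88384467-88384716, minus strand: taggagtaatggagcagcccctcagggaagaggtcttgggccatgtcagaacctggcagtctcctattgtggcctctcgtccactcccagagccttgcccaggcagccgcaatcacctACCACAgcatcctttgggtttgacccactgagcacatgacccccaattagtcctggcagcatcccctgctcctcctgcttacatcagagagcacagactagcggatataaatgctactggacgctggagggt
Ibsp, chr5:104299037-104299170, plus strand: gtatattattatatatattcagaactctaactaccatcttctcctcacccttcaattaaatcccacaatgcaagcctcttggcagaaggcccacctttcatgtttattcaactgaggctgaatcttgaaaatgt

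RefSeq held 11 start sites for 7 members (Runx2, Alpl, Bglap, Ibsp, Spp1, Postn and Lepr), and no entry was matched for Sp7, Dcn and Lum. In the 250 bases before each start, ACCACA was found in 3 of the 11 windows, those of Runx2, Bglap and the first start of Spp1, against 14.0% of 32851 windows of the same length. The longer form AACCACA was in 2 of the 11, Runx2 and Spp1, against 4.4% of all windows. The match is a match of letters only. It stood in the window of Bglap, the member with almost no counts, and not in that of Ibsp.

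A read count depends on transcript length as well as on abundance, so levels were compared between genes only on the deposited FPKM, in which fragments are scaled to the length of the transcript and the depth of the library. Spp1 was the highest member in each of the 6 groups, and its lowest library lay above the highest library of every other member of its group. Its median FPKM was 245 on day 0 and 682 on day 3 in the libraries labelled WT, and 270.4 and 683 in those labelled KO. It ranked between 40 and 342 among the 34745 genes by FPKM over the 18 libraries.

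**Figure D1:**
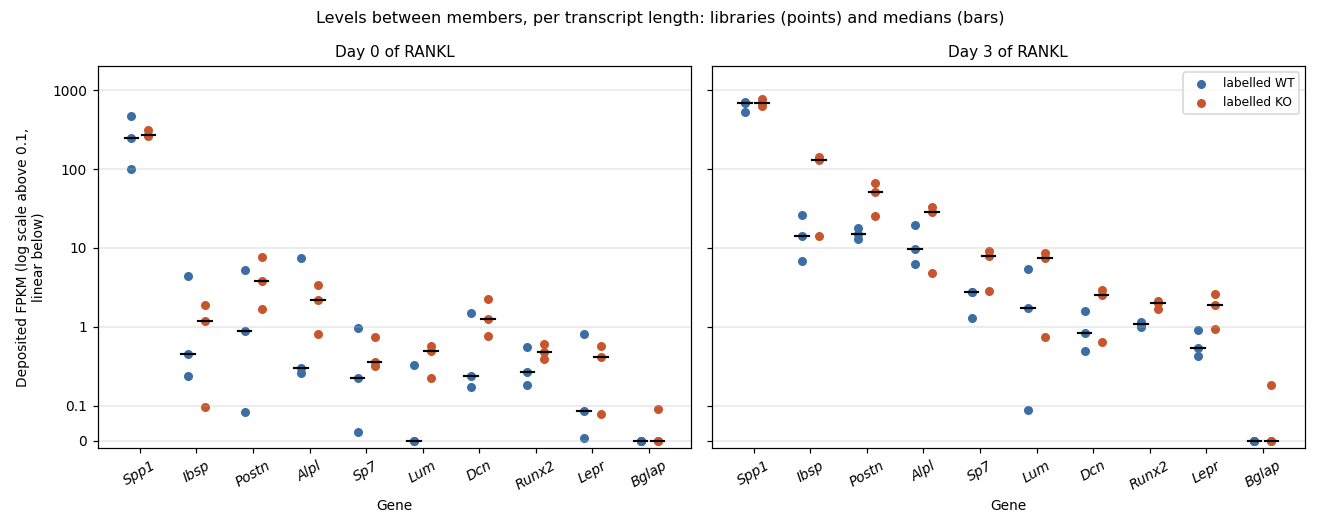
Deposited FPKM (log scale above 0.1, linear below) of the 10 members on day 0 and day 3; points are libraries, 3 per label, and bars are medians. Spp1 sits above all other members in both panels, Bglap stays at or near 0, and Ibsp, Postn and Alpl take the next places on day 3.

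Below Spp1 the order changed with the day. On day 0 in the libraries labelled WT, the median FPKM was 0.877 for Postn, 0.453 for Ibsp, 0.2997 for Alpl and 0.2695 for Runx2, and the ranges of neighbours in this order overlapped down to Lepr. On day 3 the order in the libraries labelled WT was Postn (15.1), Ibsp (14.2) and Alpl (9.57), whose ranges overlapped one another, and then, without overlap with Alpl, Sp7 at 2.78. On day 3 in the libraries labelled KO, Ibsp came next to Spp1 with a median of 131.3, followed by Postn with 51.0, Alpl with 28.4, Sp7 with 7.91 and Lum with 7.54, and each of these neighbours overlapped the next. The 3 lowest members with counts on day 3 were Dcn, Runx2 and Lepr in both labels, at medians between 0.534 and 2.51. Bglap was last, with a median of 0.

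Within a gene, levels are given as CPM, counts brought to one common library total after TMM scaling, which corrects for differences in the composition of the libraries. RANKL was compared as day 3 minus day 0 within each label. All 9 tested members had a positive difference in both labels. In the libraries labelled WT 5 of 9 rose at an adjusted p under 0.05, where 23.7% of all genes tested were called higher, and in those labelled KO 7 of 9 rose, where 20.2% were. None fell. The median difference of the 9 was 1.82 on the log2 scale in WT and 3.08 in KO, while the median over all genes tested was -0.03 and -0.01. The 3 libraries of day 3 lay above all 3 of day 0 for 4 of 9 members in WT (31.5% of all genes) and for 8 of 9 in KO (29.4%). These comparisons have separate controls but share the experiment and the estimate of spread. In bulk RNA, fewer cells of a type and less RNA per cell cannot be told apart.

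**Figure D2:**
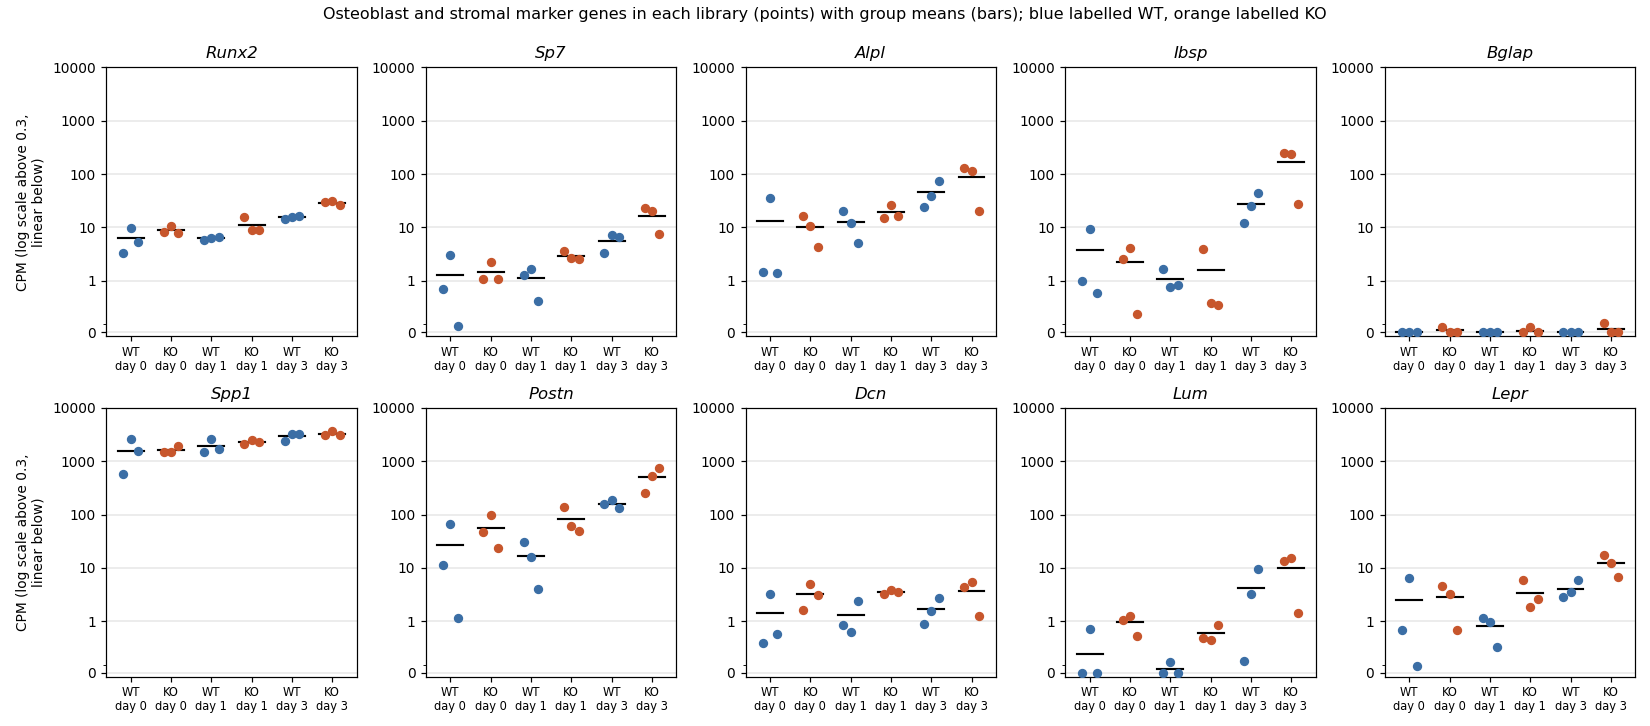
CPM of each member in each library (points, log scale above 0.3 and linear below) with the group mean as a bar; blue is labelled WT and orange labelled KO. Day 0 libraries scatter widely in Alpl, Postn, Ibsp, Sp7 and Lepr, and the day 3 libraries sit higher in most panels, while Dcn changes little and Bglap stays at or near 0.

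Runx2 (ENSMUSG00000039153, chromosome 17, 44495987 to 44814797, minus strand, GRCm38), which encodes the transcription factor that starts the osteoblast programme, rose after RANKL in both labels. On day 0 it was at 5.36, 3.33 and 9.94 CPM in WT replicates 1, 2 and 3, and on day 3 at 14.5, 15.9 and 16.3. In the libraries labelled KO it was at 8.34, 7.85 and 10.6 CPM on day 0 and at 29.4, 31.4 and 26.1 on day 3. The groups did not overlap in either label. On the log2 scale Runx2 rose by 1.32 (SE 0.31, adjusted p = 0.00274, quasi-likelihood test of edgeR) in WT and by 1.70 (SE 0.31, adjusted p = 0.000735) in KO, and both calls held whichever of the 6 libraries was left out. The antisense neighbour Supt3 overlaps this locus with 119 to 377 counts, and the sources used here do not give whether counting used strand.

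Sp7 (ENSMUSG00000060284, chromosome 15, 102356609 to 102366325, minus strand), the gene of Osterix, needed in committed osteoblast precursors, was low before RANKL. WT day 0 had 1, 9 and 42 counts in replicates 1, 2 and 3, or 0.0824, 0.697 and 3.00 CPM, and WT day 3 had 3.25, 7.06 and 6.73 CPM. In KO it went from 1.07, 1.08 and 2.26 CPM to 22.6, 19.9 and 7.65. Each day 3 library lay above each day 0 library of its label. The rise was 2.14 (SE 0.75, adjusted p = 0.0285) in WT and 3.50 (SE 0.77, adjusted p = 0.00279) in KO. The KO call held in 6 of 6 leave-one-out fits, whereas the WT call was lost without WT day 0 replicate 1 or 2 or WT day 3 replicate 2 or 3 (adjusted p up to 0.0935), and its value reached 3.84 without WT day 0 replicate 3.

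Alpl (ENSMUSG00000028766, chromosome 4, 137741733 to 137796384, minus strand) encodes the phosphatase that frees phosphate for mineral. In WT day 0 it had 17, 19 and 502 counts in replicates 1, 2 and 3, so replicate 3 was 25.6 times as high as replicate 1 in CPM. On WT day 3 it was at 24.5, 38.2 and 75.1 CPM, which overlaps the 35.9 CPM of WT day 0 replicate 3. The difference of 1.82 (SE 1.01, adjusted p = 0.141) did not pass the test, and without WT day 0 replicate 3 it was 5.01 with an adjusted p of 0.000832. In KO, Alpl was at 16.1, 4.31 and 10.4 CPM on day 0 and at 127, 112.5 and 20.6 on day 3, and it rose by 3.08 (SE 1.05, adjusted p = 0.0294). Leaving out KO day 0 replicate 2 or 3, or KO day 3 replicate 1 or 2, raised that adjusted p to as much as 0.0951.

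Ibsp (ENSMUSG00000029306, chromosome 5, 104299171 to 104311469, plus strand) encodes bone sialoprotein, a matrix protein at which mineral forms. It went in WT from 0.577, 1.01 and 9.51 CPM to 12.2, 25.6 and 44.9 CPM, and in KO from 2.57, 0.231 and 4.08 to 252.7, 235 and 27.0. Groups were apart in both labels. The fold change on the log2 scale was 2.87 (SE 1.09, adjusted p = 0.0398) in WT and 6.21 (SE 1.25, adjusted p = 0.00155) in KO. In WT it fell short without day 0 replicate 1 or 2 or day 3 replicate 2 or 3 (adjusted p up to 0.121), and it was 5.12 without WT day 0 replicate 3. In KO it held in 6 of 6 such fits, between 5.71 and 6.94. The KO libraries of day 3 were themselves 9.37-fold apart, with 4242 and 3841 counts in replicates 1 and 2 and 476 in replicate 3.

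Bglap (ENSMUSG00000074483, chromosome 3, 88383501 to 88384464, minus strand), the osteocalcin gene of mature osteoblasts, had 4 counts in all over the 18 libraries. It was at 0 in 15 libraries, had 1 count in KO day 0 replicate 1 and in KO day 1 replicate 1, and had 2 in KO day 3 replicate 1. Each group was at or under 3 counts per library, so no fold change is given. Of its near-identical neighbours, between which reads can be split, Bglap2 had 0 counts in every library and Bglap3 at most 3. A count of 0 in a library allows a level of up to 3 counts, by counting error only.

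Spp1 (ENSMUSG00000029304, chromosome 5, 104435118 to 104441050, plus strand), the gene of osteopontin, lies 123649 bases after Ibsp. It was at 1539, 578 and 2643 CPM in WT day 0 replicates 1, 2 and 3 and at 2413, 3198 and 3190 on day 3. In KO it was at 1502, 1940 and 1476 on day 0 and at 3130, 3639 and 3122 on day 3. Spp1 was thus abundant in libraries where other members had few counts: WT day 0 replicate 1 had 18674 counts of Spp1 beside 17 of Alpl, 14 of Postn, 7 of Ibsp, 1 of Sp7 and 0 of Lum. Its rise was 0.89 (SE 0.38, adjusted p = 0.0625) in WT, where the groups overlapped, and 1.01 (SE 0.38, adjusted p = 0.0435) in KO, where they did not. Without WT day 0 replicate 3 the WT difference was 1.495 and passed (adjusted p = 0.00298). The KO call was lost without any 1 of the 6 KO libraries of those days (adjusted p 0.0554 to 0.107). An overlapping gene on the same strand, Gm42793, had 10 to 94 counts.

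Postn (ENSMUSG00000027750, chromosome 3, 54361109 to 54391037, plus strand), the gene of periostin, was the second most counted member. Its WT day 0 libraries were at 1.15, 11.4 and 67.1 CPM in replicates 1, 2 and 3, a 58.1-fold spread, and its WT day 3 libraries at 155.4, 190.5 and 131.6. In KO it was at 47.9, 23.9 and 97.1 CPM on day 0 and at 258, 533.5 and 742 on day 3. All day 3 libraries lay above those of day 0. It rose by 2.58 (SE 0.99, adjusted p = 0.0413) in WT and by 3.18 (SE 1.01, adjusted p = 0.0206) in KO. The WT call was lost without any of the other 5 libraries of those days (adjusted p up to 0.125) but not without WT day 0 replicate 3, where the value was 4.68. In KO it was lost without day 0 replicate 1 or 2 or day 3 replicate 3 (adjusted p up to 0.0733).

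Of the proteoglycan pair, Lum (ENSMUSG00000036446, chromosome 10, 97565501 to 97572703, plus strand) and Dcn (ENSMUSG00000019929, chromosome 10, 97479500 to 97518162, plus strand) lie 47339 bases apart and bind collagen fibrils. Lum had 0, 0 and 10 counts in WT day 0 replicates 1, 2 and 3 and 3, 54 and 168 on day 3, and in KO it had 15, 7 and 17 counts on day 0 and 224, 250 and 25 on day 3. It rose in both labels, by 4.05 (SE 1.34, adjusted p = 0.0216) in WT, although WT day 3 replicate 1 lay below WT day 0 replicate 3, and by 3.39 (SE 1.19, adjusted p = 0.0337) in KO. The WT call was lost without day 0 replicate 1 or 2 or day 3 replicate 3 (adjusted p up to 0.122). It stood without WT day 0 replicate 3 (adjusted p = 0.00821), when the remaining day 0 libraries held no count and a fitted fold is not given. The KO call held only without KO day 3 replicate 3 and was lost without each of the other 5 libraries (adjusted p up to 0.0983).

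Dcn did not share the pattern of its neighbour. It was between 0.387 and 3.29 CPM on day 0 and between 0.878 and 2.75 on day 3 in WT, and between 1.64 and 4.88 on day 0 and between 1.25 and 5.32 on day 3 in KO. Its differences of 0.26 (SE 0.77, adjusted p = 0.791) and 0.20 (SE 0.73, adjusted p = 0.843) were smaller than their standard errors. The sign of both turned when single libraries were left out: the WT value was -0.25 to 1.84 and the KO value -0.16 to 0.67.

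Lepr (ENSMUSG00000057722, chromosome 4, 101717404 to 101815352, plus strand), the leptin receptor carried by marrow stromal progenitors, had 1, 9 and 92 counts in WT day 0 replicates 1, 2 and 3 and 54, 61 and 105 on day 3. In KO it had 63, 9 and 45 counts on day 0 and 289, 203 and 118 on day 3. The WT groups overlapped and the KO groups did not. The differences of 0.72 (SE 0.93, adjusted p = 0.53) in WT and 2.09 (SE 0.94, adjusted p = 0.0843) in KO did not pass. In KO the value with the replicate number as a block within each label was 2.29 and passed (adjusted p = 0.0424). With the number as 1 block over both labels it was 2.33 and did not (adjusted p = 0.0505). Whether the numbers pair libraries of days 0 and 3 is not settled. Without WT day 0 replicate 3 the WT value was 3.37 (adjusted p = 0.00821).

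Several calls also turned on the fit. In WT, Spp1 passed in 6 of 12 other settings: a stricter filter, total counts as library size, the block within label, DESeq2 (adjusted p = 0.028) and limma on FPKM with either pseudocount. Alpl passed in WT in 3 of them, the block within label and both limma fits. A fit of only the WT groups of days 0 and 3 left Runx2 as the 1 member called, and the Lum call was also lost with limma on log2(FPKM + 1). In KO, Lepr also passed with only the groups compared, DESeq2 and both limma fits, and Spp1 was lost with no filter.

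**Figure D3:**
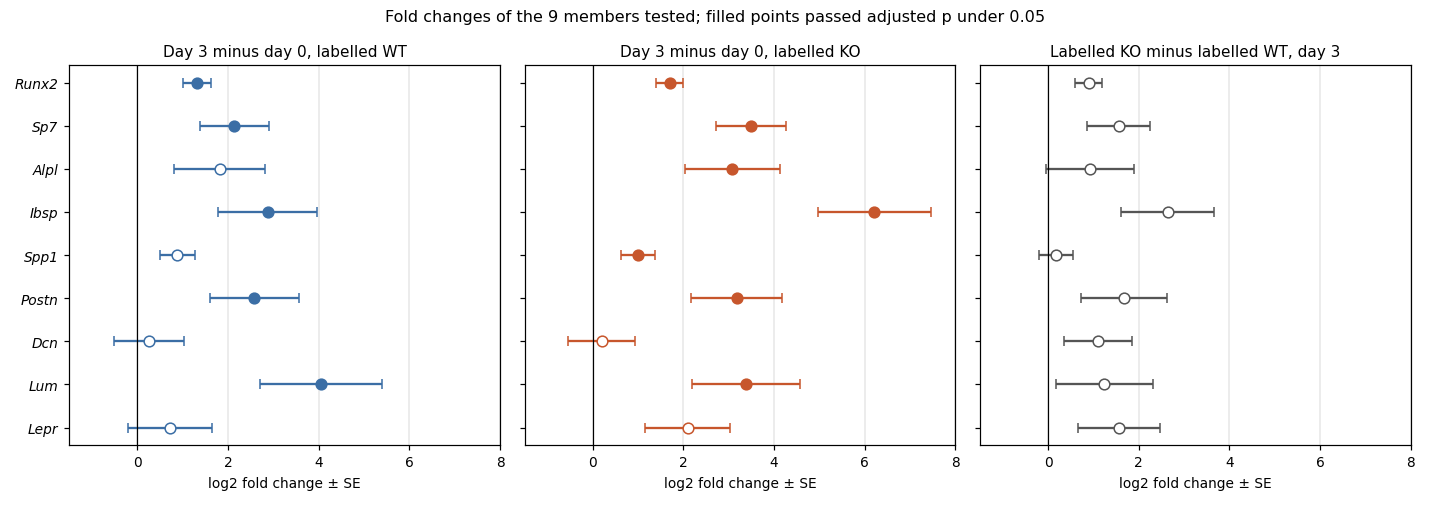
Log2 fold changes with their standard errors for the 9 members tested: day 3 minus day 0 in the libraries labelled WT and KO, and labelled KO minus labelled WT on day 3. Filled points passed an adjusted p under 0.05, 5 in the first panel, 7 in the next and 0 in the last, and all points lie to the right of 0.

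One day of RANKL moved none of the members past the test. On day 1 minus day 0, 0 of 9 were called by edgeR in WT, where 2.35% of all genes were. In KO 0 of 9 were called, where 0.0211% of all genes were. DESeq2 called 0 of 9 in each, against 9.13% of all genes in WT and 1.26% in KO. By an unadjusted p under 0.05 with a fold above 1.5 or below 0.66, 0 of 9 passed in either label, against 11.2% of all genes in WT and 5.05% in KO. For the members other than Lum the differences were between -1.77 and 0.28 in WT, where Runx2 and Spp1 were above 0. In KO the differences of all 9 members, Lum among them, were between -0.67 and 1.00, with 7 of 9 above 0. Sp7 and Spp1 were the 2 members whose KO libraries of day 1 all lay above those of day 0 (8.55% of all genes), at 2.63, 2.51 and 3.69 CPM of Sp7 in KO day 1 replicates 1, 2 and 3. Lum was at 0, 2 and 0 counts in the 3 WT libraries of day 1, its floor. With the floor of 3 counts put in each library of day 1, it was at least 1.12-fold lower than the WT day 0 mean. That mean rests on WT day 0 replicate 3 alone, with 10 counts, as replicates 1 and 2 had 0, so no fall is read from it.

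The next comparison was between the labels, KO minus WT on the same day. Zmat1 itself differed by 0.24, 0.40 and 0.63 on the log2 scale on days 0, 1 and 3 and was not lower in the libraries labelled KO, so the values are differences between labels. On day 3 all 9 tested members were higher on average in the libraries labelled KO, by a median of 1.24 on the log2 scale against 0.02 over all genes tested, and 0 of 9 passed the adjusted test by edgeR, where 0.14% of all genes did. By the unadjusted p under 0.05 with the fold limits, 3 of 9 passed (5.69% of all genes): Runx2 at 0.90 (SE 0.30, adjusted p = 0.324), Sp7 at 1.56 (SE 0.70, adjusted p = 0.447) and Ibsp at 2.64 (SE 1.03, adjusted p = 0.392). DESeq2 called 0 of 9, where 1.66% of all genes were called. Postn differed by 1.68 (SE 0.95), Lepr by 1.57 (SE 0.91), Lum by 1.24 (SE 1.07), Dcn by 1.09 (SE 0.75), Alpl by 0.92 (SE 0.97) and Spp1 by 0.17 (SE 0.37), with adjusted p from 0.55 to 0.898. The Lum value rested on single libraries, at 2.59 without WT day 3 replicate 3 and 0.67 without WT day 3 replicate 1. The libraries labelled KO lay above all those labelled WT for 4 of 9 members, Runx2, Sp7, Postn and Lepr, and for 15.9% of all genes.

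The day 3 libraries labelled KO were not alike in these genes. Replicates 1 and 2 had 252.7 and 235 CPM of Ibsp, 127 and 112.5 of Alpl, 13.3 and 15.3 of Lum and 4.47 and 5.32 of Dcn, while replicate 3 had 27.0, 20.6, 1.42 and 1.25. Replicate 3 lay within the range of the libraries labelled WT for Ibsp, Lum and Dcn and below it for Alpl. For Postn the order was the opposite, with 258, 533.5 and 742 CPM in replicates 1, 2 and 3, and for Runx2 the 3 libraries differed by 1.204-fold at most. Among the libraries labelled WT on day 3, replicate 1 was lowest and replicate 3 highest in Ibsp, Alpl, Lum, Dcn and Lepr, and replicate 3 was lowest in Postn. In neither label was the library highest in Ibsp also the one highest in Postn.

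**Figure D4:**
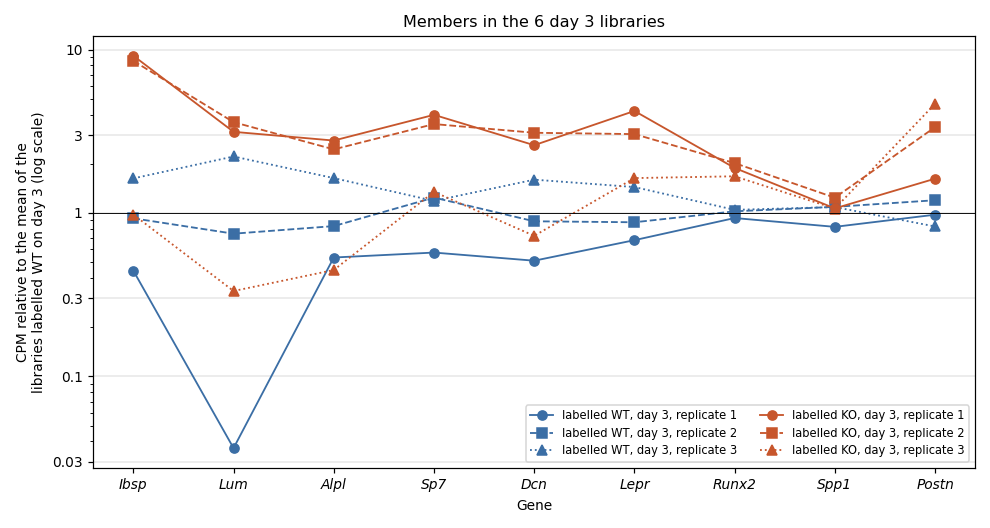
CPM of 9 members in the 6 day 3 libraries, each divided by the mean of the 3 libraries labelled WT (log scale); lines join the genes of 1 library. KO replicates 1 and 2 lie above the WT libraries from Ibsp to Runx2, KO replicate 3 falls among or below them for Ibsp, Lum, Alpl and Dcn, and for Postn KO replicate 3 is the highest of the 6.

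On day 1 all 9 members were again higher on average in the libraries labelled KO. By the adjusted test of edgeR or DESeq2 0 of 9 passed (0.112% of all genes by edgeR and 0.535% by DESeq2). Runx2 (0.82, SE 0.30, adjusted p = 0.563) and Postn (2.30, SE 0.98, adjusted p = 0.608) passed the unadjusted test of edgeR, as did 4.7% of all genes. The Postn value was 1.69 without KO day 1 replicate 3 and 3.06 without the single-hyphen WT day 1 replicate 1. Postn was at 60.01, 49.98 and 141 CPM in KO replicates 1, 2 and 3 and at 30.8, 15.8 and 4.08 in the WT libraries, the last being the double-hyphen replicate 1. The groups were apart, KO above WT, for 6 of 9 members and for 6.83% of all genes. For Lum, at the floor in WT, the KO libraries were at least 2.82-fold higher, with the floor of 3 counts put in each WT library. On day 0, 0 of 9 members passed either test (0.119% of all genes by the adjusted p of edgeR and 3.95% by the unadjusted). DESeq2 called 0 of 9 (0.451% of all genes), and 7 of 9 were higher in KO. No member's groups were apart with KO higher, as those of 4.9% of all genes were.

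Averaged over the 3 days, all 9 members were higher in the libraries labelled KO and 1 of 9 passed, where 1.59% of all genes did. This was Runx2, at 0.75 (SE 0.17, adjusted p = 0.0481), and the call was lost in 15 of 18 fits that left out 1 library (adjusted p 0.0022 to 0.106 over the 18). It stood only without WT day 0 replicate 3, KO day 0 replicate 2 or the double-hyphen WT day 1 replicate 1. Without WT day 0 replicate 3, 7 of 9 members passed and 10.7% of all genes did: Runx2, Sp7 (1.60), Alpl (1.46), Postn (2.38), Dcn (1.76), Lepr (2.14) and Lum, for which no fitted value is given because its remaining WT libraries of day 0 held no count. By the unadjusted test 6 of 9 passed in the full set, where 8.73% of all genes did. The rise from day 0 to day 3 was not shown to differ between the labels. In the test of that difference 0 of 9 members passed by edgeR or DESeq2. Of all genes, 0.0% passed by edgeR and 0.0282% by DESeq2. Past the unadjusted limit of edgeR were 1 of 9 members (Ibsp, 3.34, SE 1.52, adjusted p = 0.91) and 3.39% of all genes. Without WT day 0 replicate 3 that value of Ibsp was 1.12.

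The style of the titles was tested with day and label in the fit. There 3 of 9 members differed, where 23.2% of all genes did, a share too near to be read as a result about the members. The 5 double-hyphen libraries were lower in Postn by 2.27 (SE 0.57, adjusted p = 0.0118), in Lepr by 2.30 (SE 0.61, adjusted p = 0.0159) and in Ibsp by 2.76 (SE 0.91, adjusted p = 0.0411) on the log2 scale. Genes of other lists differed as well: lower in the double-hyphen libraries were 11 of 13 fibroblast matrix genes (median -2.11), 9 of 10 matricellular genes, 8 of 13 marrow stromal progenitor genes (median -1.68), 5 of 8 smooth muscle and pericyte genes (median -2.34) and 4 of 5 tested erythroid genes (median -6.64), beside a median of -0.01 over all genes tested. The Ibsp call was lost without any 1 of WT day 0 replicate 1, KO day 0 replicate 2 or KO day 1 replicates 1 and 2 (adjusted p up to 0.114), and the Lepr call without WT day 0 replicate 1 (adjusted p = 0.0509). Since these libraries were all of days 0 and 1, the comparison with day 3 was repeated without them. Then 2 of 9 members rose in WT, Runx2 and Postn, a share close to the 25.3% of all genes called higher in that fit, and 4 of 9 rose in KO, Runx2, Sp7, Ibsp and Postn, where 22.7% of all genes did. What the styles stand for is not given in the labels.

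Other genes of the osteoblast lineage were read from fixed lists. For rises from day 0 to day 3 in this and later lists, 23.7% of all genes tested were called higher in WT and 20.2% in KO. The share called lower is not given here, so counts of genes that fell are not read as results about a list. Of 11 tested osteoblast transcription factors other than Runx2 and Sp7, 3 rose and 1 fell in WT and 5 rose and 1 fell in KO. The WT count of rises was near the share of all genes and is not read as a result about the list. Atf4, a stress factor that osteoblasts need for late differentiation, rose by 1.08 in WT and by 0.73 in KO, Twist1 by 2.37 and 2.05, and Mef2c fell by 1.53 and 0.75. Of the RUNX family, Runx3 rose by 1.97 in WT and 2.10 in KO, Runx1, the blood cell member, fell by 0.75 in WT, and Cbfb, the shared partner, differed by 0.14 and -0.08.

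Some genes of mature osteoblasts and osteocytes were present and others were not. Of 9 tested mature osteoblast genes 1 rose in WT and 2 in KO. These counts were below or near the share of all genes called higher (23.7% in WT and 20.2% in KO) and are not read as a result about the list. Ank rose by 2.55 and 1.83. Pth1r, the parathyroid hormone receptor, rose by 3.36 in KO, where it was at 39.1 CPM on day 3 against 11.8 in WT. The summed level of this list was 138 to 162 CPM on WT day 0 and 419 to 511 on WT day 3, and 177 to 187.5 and 418 to 493 in KO. Most of that rise was Ank alone, whose mean went from 58.5 to 343.5 CPM in WT and from 67.1 to 238.9 in KO. Of 5 tested osteocyte genes 3 rose in WT and 2 in KO, with Dmp1, a matrix protein of osteocytes, at 3.83 CPM in WT and 5.14 in KO on day 3. Mepe and Dspp, which with Dmp1, Ibsp and Spp1 form a family of bone phosphoproteins, had 0 counts in every library, and Sost, named here after its values were seen, had at most 1. Dmp1, the one tested gene of this family list, rose in both labels (3.52 in WT and 2.94 in KO).

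Genes of fibroblast matrix and stroma rose beside the members. Of 13 fibroblast matrix genes 11 rose in WT and 13 in KO, by a median of 2.81 and 3.25, and Col1a1, the main collagen chain of bone, changed by 3.32 in KO, which passed, to 10690 CPM on day 3, and by 2.87 in WT (adjusted p = 0.053), to 5496 CPM. The summed level of this list was 126 to 5736 CPM on WT day 0, 13250 to 17410 on WT day 3, 1432 to 4392 on KO day 0 and 23310 to 34110 on KO day 3. Of 13 marrow stromal progenitor genes 6 rose in each label, among them Pdgfrb (2.27 and 2.37) and Cdh11 (2.13 and 2.48) in both, while Cxcl12, the chemokine of Lepr-positive stroma, changed by 3.14 in KO, which passed, and by 2.22 in WT (adjusted p = 0.0816). The difference of these rises did not pass (adjusted p = 0.972).

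Small proteoglycans and other matrix proteins were also read. Of 7 tested small leucine-rich proteoglycans other than Dcn and Lum, 5 rose in WT and 6 in KO. Fmod, fibromodulin of tendon and cartilage, rose by 4.71 and 7.51, Aspn by 4.53 and 5.35, and Bgn, the most abundant, by 2.16 and 2.38. Of 10 matricellular proteins 3 rose and 1 fell in WT and 5 rose and 1 fell in KO, with Sparc (2.55 and 2.90) higher in both. The WT count of rises was near the 23.7% of all genes called higher. The gene that fell was Tgfbi (-1.39 and -1.02), named here after its values were seen. None of these lists held a gene called between the labels on day 3.

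**Figure D5:**
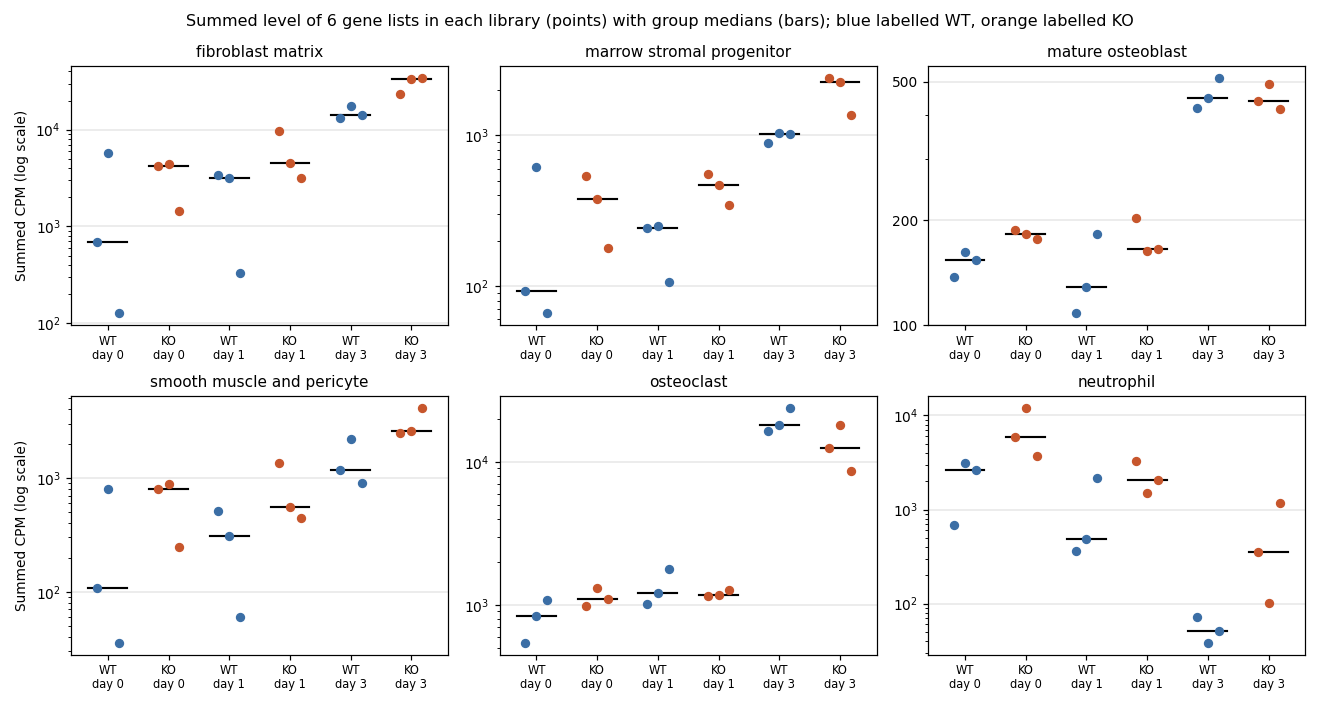
Summed CPM (log scale) of 6 gene lists in each library, with group medians as bars; blue is labelled WT and orange labelled KO. Fibroblast matrix, stromal, mature osteoblast, smooth muscle and osteoclast sums are higher on day 3 than in most day 0 libraries, WT day 0 replicate 3 is the highest of its group in all of the lists but the osteoclast one, and neutrophil sums are lower on day 3, with higher medians in the KO groups.

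The labelled cell type was present by its markers, and genes of other cell types were read beside them. Of 9 macrophage genes 8 fell in each label after 3 days. The median difference of the 9 was -2.39 in WT and -1.90 in KO. Their sum was 30560 to 58380 CPM on WT day 0 and 6454 to 13360 on WT day 3. In KO it was 34370 to 60770 on day 0 and 8820 to 17630 on day 3. Of 12 osteoclast genes 10 rose in each label, to sums of 16550 to 23970 CPM in WT and 8630 to 18220 in KO, from 542 to 1074 and 975 to 1312. The KO library of day 3 with the lowest osteoclast sum was replicate 3. That library was also the lowest of its group in every tested member but Postn, in which it was the highest.

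Spp1 is the member that osteoclasts share. It changed by 0.89 in WT and 1.01 in KO while the osteoclast genes rose to the sums above. Their median difference was 6.58 in WT and 5.0 in KO. The receptors of osteopontin, integrins and CD44, went both ways: 5 of 8 rose and 2 fell in WT, and 4 rose and 1 fell in KO. Among them Itgb1 was higher and Itga4 lower in both labels. Of 5 tested genes of leptin receptor signalling, Socs3 rose in both labels, Leprot and Jak2 fell in both, and Stat3 fell in WT.

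Lists of other mesenchymal cells were read as well. In smooth muscle and pericytes 2 of 8 genes rose in each label, Cnn1 and Cspg4. That count was near the 23.7% of all genes tested called higher in WT and 20.2% in KO. The summed level was 35.6 to 794 CPM on WT day 0 and 899 to 2194 on WT day 3. In KO it was 246 to 879 on day 0 and 2454 to 4138 on day 3. Of 5 tested chondrocyte genes 2 rose and 1 fell in each label, with a median of 0.12 in WT and 2.15 in KO. Col2a1, the collagen of cartilage, was at 402.5 CPM in WT and 576 in KO on day 3. Both tested adipocyte genes, Plin4 and Adipoq, rose in each label. Averaged over days, 2 of 8 smooth muscle and pericyte genes were called higher in KO. So was 1 of 5 tested chondrocyte genes, where 1.59% of all genes were called. The part of these cells in the members' differences was not tested.

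Blood cell lists were given for the same reason. All 9 neutrophil genes fell in each label, with a median difference of -5.02 in WT and -3.77 in KO. The neutrophil sum was higher in the libraries labelled KO, at 102 to 1184 CPM against 38.1 to 71.1 on day 3. On day 0 it was 3751 to 12130 against 684 to 3116. On day 1 the ranges overlapped, at 1485 to 3253 against 364 to 2183. Averaged over days 3 of 9 genes were called, where 1.59% of all genes were. Of 5 tested B cell genes 4 fell in WT and 2 in KO, and 1 was called higher in KO over days, with sums of 4.10 to 8.94 CPM in KO and 0.882 to 1.39 in WT on day 3. Of 8 endothelial genes 1 fell in WT and 0 changed in KO, and 2 were called higher in KO over days, with sums of 21.6 to 81.8 CPM in KO and 5.11 to 15.6 in WT on day 3. Of 2 tested T and NK cell genes 1 fell in each label, and of 5 tested erythroid genes 1 did. Their part in the label difference of the members was not tested.

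The members moved together across libraries to different degrees. Over the 18 libraries, which share days and labels, Pearson's r of log2 CPM was 0.93 between Sp7 and Postn, 0.92 between Postn and Lepr, 0.90 between Runx2 and Sp7, 0.90 between Sp7 and Alpl, and 0.75 between Ibsp and Postn. Dcn had the lowest values, from 0.33 with Ibsp to 0.65 with Lum. Spp1 was closest to Runx2 (0.80) and Alpl (0.79). These values describe the 18 libraries and are not tests.

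The genes most like each member over the same libraries were found among all genes tested. Postn was most like Tgfb2 (r = 0.987), Thy1 (0.987) and Loxl2 (0.986), and Sp7 was most like Efemp2 (0.972), Pth1r (0.970) and Itm2a (0.969). Runx2 was most like Samd14 (0.966), Sardh and Nbl1, Lepr like Adamts9 (0.973), Pknox2 and Agt, and Alpl like Ptgfr (0.961), Gas1 and Olfml2a. Ibsp came nearest to Insc (0.945), Slc52a3 and Sema3b, and genes like Lum included Sned1 (0.904) and Six5. The members with the loosest matches were Spp1, with Pfn2 (0.904), Bola3 and Nnmt, and Dcn, with Apln (0.864), Vstm4 and Hp.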

How the data were processed

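The deposited table pairs read counts with FPKM values, per gene, for 18 libraries. Per the labels and the study's methods, RNA was purified on columns, libraries were made with a SMARTer messenger RNA kit, and the deposited FPKM values came from StringTie and Ballgown on GRCm38; the aligner and counting program are not given in the sources used here. Counts were whole numbers. Columns with no sample numbered 0. Gene positions are those of the table.

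From the deposited counts, genes were filtered with filterByExpr (minimum count 10), scaled by TMM and fitted in R 4.3.3 with the edgeR 4.0.16 quasi-likelihood model over 18 libraries in 6 groups, with p-values (2-sided) adjusted by Benjamini-Hochberg over 14241 genes. The common dispersion was 0.09451. Calls required an adjusted p under 0.05. SE came from the F statistic. A gene with 3 or fewer counts in every library of a group was taken as at the floor. Floors cover counting error only. The fit was tested on simulated data. DESeq2 1.42.0 and limma 3.58.1 on log2(FPKM + 1) and log2(FPKM + 0.1) were alternatives, as were other filters and scalings, blocks, title style and leaving out libraries; leaving out the 5 double-hyphen libraries was chosen after seeing the data.

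The members and gene lists were chosen with earlier results of these data known. All members are named; other genes named are the 3 most correlated with each tested member, up to 4 most abundant genes of each list, genes whose reads could be shared with a member (Bglap2, Bglap3, Leprot and the overlapping Supt3 and Gm42793) and Zmat1, apart from those said to be named after their values were seen. Some genes that this rule selects are not reported here. Same-number libraries deviated together in KO between days 0 and 3 (r 0.13, 0.135 and 0.398), and in WT they ranged from -0.023 to 0.111. Same-number libraries of unlike label on day 0 had r of -0.393, 0.168 and 0.321. Libraries of unlike number were not compared, so whether the numbers pair libraries is not settled.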

Additional observations from a re-analysis of the deposited data

How the results depend on the processing

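The shares of all genes tested that were called also changed with the setting and are given in brackets. The members called higher on day 3 minus day 0 in the libraries labelled WT were 5 (23.7% of all genes). They were 1 with a fit of only the groups compared (20.7%) and 2 without the 5 double-hyphen libraries (25.3%). When 1 library was left out they were 1 to 8 (18.7% to 27.8%), with 8 without WT day 0 replicate 3 (27.8%). In KO they were 7 (20.2%), and were 4 without the double-hyphen libraries (22.7%) and 3 to 5 when 1 library was left out (14.3% to 16.9%). For KO minus WT on day 3, 0 (0.14%) became 1, Runx2, with only the groups compared (0.927%). For the average over days the count was 1 (1.59%). It became 0 with no filter (0.852%), a stricter filter (0.993%) or total counts as library size (1.07%). It was also 0 with limma on log2(FPKM + 0.1) (1.59%) or no double-hyphen libraries (2.47%). It was 2 with DESeq2 (6.91%), 4 with title style as a covariate (9.68%), and 0 to 7 when 1 library was left out (0.456% to 10.7%). For title style the 3 (23.2%) became 1 to 3 when 1 double-hyphen library was left out (13.7% to 20.5%). Replicate numbers as a block gave 5 members in WT and 6 in KO on day 3 minus day 0, where Spp1 was lost (adjusted p = 0.0527); as a block within each label they gave 7 and 8, and changed no other call in KO than that of Lepr, and in WT made those of Alpl and Spp1. In the other comparisons, day 1 minus day 0 in each label, KO minus WT on days 0 and 1 and the difference of the rises, the count was 0 in every setting run. Of 828 values of members under other settings, 720 kept direction and side of the threshold, 72 lost and 28 gained a call, and 8 turned: Dcn in WT to -0.039 without the double-hyphen libraries and, with 1 library left out, Dcn in WT (-0.25 to 1.84), in KO (-0.16 to 0.67) and for title style (-0.38 to 0.57), and Spp1 for title style (-0.041 to 0.17). The cause of these changes was not tested. Bglap had few or no counts on every day. Before RANKL some libraries also had few or no counts of Lum, Sp7, Lepr, Dcn or Ibsp, so values there are uncertain.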
